A study of Mus musculus with 9 samples.

Results

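The 9 genes described here, Lifr, Il6st, Jak1, Stat3, Socs3, Pim1, Pim3, Junb and Gbx2, carry and read out the signal of the cytokine LIF in mouse embryonic stem cells. They were picked by symbol from a count table of 16636 genes, and all 9 were listed there and passed the filter on low counts, which left 14246 genes. RNA was sequenced from E14 cells, a wild-type line of mouse embryonic stem cells, in 3 groups of 3 libraries: untreated cells, a transfection control that received siRNA against luciferase (siLuc) and a knockdown of Stag3 by siRNA (siStag3). Each siRNA group was seeded at 200000 cells and transfected with RNAiMax lipid and 50 pmol of siRNA on 2 successive days, with harvest at 48 hours. All groups grew on fibronectin in medium with 1000 U/ml of LIF, 1 µM of the MEK inhibitor PD0325901 and 3 µM of the GSK3 inhibitor CHIR99021, so no library lacks LIF, and the cells are of 1 line. The labels describe no cells treated with lipid alone, so siLuc against untreated joins the effects of the lipid, of the siRNA and of handling. Nothing in the labels says whether the 3 libraries of a group came from separate cultures beyond calling them biological replicates.

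LIF binds its receptor LIFR, which pairs with the shared signalling chain gp130, the product of Il6st. The pair activates the kinase JAK1, bound to its inner part, and JAK1 phosphorylates the transcription factor STAT3, which moves to the nucleus. There STAT3 switches on targets that help to hold mouse embryonic stem cells in the naive state. SOCS3, itself made in response to STAT3, binds gp130 and JAK and damps the signal. PIM1 and PIM3 are serine/threonine kinases that favour self-renewal, JUNB is an AP-1 transcription factor and an early target of LIF, and GBX2 is a homeobox transcription factor that can stand in for LIF when it is forced on. STAT3 acts as a protein switched on by phosphorylation, which RNA counts do not measure.

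STAT proteins bind palindromes whose arms TTC and GAA lie 3 or 4 bases apart. The 250 bases before each RefSeq gene start (build GRCm38.p6, 11 windows for the 9 genes) were searched for TTCNNNGAA and for TTCNNNNGAA, each of which reads the same on both strands. The stretches around the only matches are shown because Socs3 is the classic STAT3 target and Gbx2 is the gene whose level differed most below. Capitals mark the match, and each stretch is read along the strand of its gene.
Socs3: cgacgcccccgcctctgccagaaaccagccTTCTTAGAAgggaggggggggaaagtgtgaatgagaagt
Gbx2: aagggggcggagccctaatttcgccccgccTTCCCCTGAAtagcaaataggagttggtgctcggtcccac
The Socs3 stretch lies at chr11:117969482-117969550 on the minus strand. The first base of its match TTCTTAGAA is at -154 from the RefSeq start and 69 bases before the start of the GENCODE M21 transcript Socs3-203. The Gbx2 stretch lies at chr1:89931248-89931317, also on the minus strand, and the first base of its match TTCCCCTGAA is at -111 from the RefSeq start. TTCNNNGAA was found in 7.02% of 32851 windows of this length and TTCNNNNGAA in 5.85%. The tighter form TTCCNGGAA, in 0.913% of windows, was found in none of the 11. The Socs3 match has 3 bases between the arms and the Gbx2 match has 4. A match is a description of letters, and no binding of STAT3 or another STAT protein was measured here. Whether either match has a part in the level of its gene was not tested.

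Library totals ran from 29332436 to 44527534 counts, at which 3 counts equal 0.0650 to 0.0990 CPM (the count scaled to library size with TMM factors). The smallest count of any of the 9 genes in a library was 341, for Junb. The 8 embryonic stem cell markers summed to between 3981 and 4554 CPM per library. The 7 primitive endoderm markers summed to 2.28 to 4.24 CPM, the 7 fibroblast markers to 1.56 to 2.86 CPM with Dcn not listed, and the 7 germ layer markers to 3.66 to 5.60 CPM with Mesp1 and Hand2 not listed. Some ranges separated the groups. The germ layer sum was 4.80 to 5.60 CPM in siLuc, above the untreated range of 3.66 to 4.57 CPM and the siStag3 range of 4.29 to 4.78 CPM. The primitive endoderm sum was 2.28 to 3.32 CPM in siStag3, below the untreated range of 3.38 to 4.24 CPM. The stem cell sum was 4370 to 4554 CPM in siStag3, above the siLuc range of 4064 to 4243 CPM. The 7 trophoblast markers summed to 62.7 to 67.2 CPM in siStag3, below the 71.0 to 74.9 CPM of both other groups, with Hand1 not listed. Tfap2c, at a mean of 63.0 CPM over the 9 libraries, made up most of that sum, and the 5 others averaged 0.536 to 2.83 CPM. In the germ layer sum Pax6 averaged 3.03 CPM and the others 0.0551 to 0.965 CPM. In the primitive endoderm sum Pdgfra averaged 1.61 CPM and the others 0.126 to 0.708 CPM. The part of these markers in the results below was not tested, and in bulk RNA fewer cells of a type and less RNA per cell cannot be told apart. Stag3 itself was at 22.5, 23.3 and 26.7 CPM in siLuc and, with siStag3, at 13.5, 15.2 and 15.6 CPM. That fall was -0.71 on the log2 scale, to 61.3% of siLuc (SE 0.0722, adjusted p 0.00205, and 0.605 without the set). It missed the threshold without the siStag3 library of Set 1 experiment 1 (-0.67, adjusted p 0.0582). Column headers give each library a set number, and each group has 2 libraries of Set 1 and 1 of Set 3. Main values below come from a fit with the set as a term, and the fit without it is given beside them. A replicate block as a term was added after the data were seen and is given where it changed a call. Its 3 blocks are Set 1 experiment 1, Set 1 experiment 3 and all of Set 3, each with 1 library of each group. The Set 3 block joins siLuc of experiment 1 with untreated and siStag3 of experiment 5.

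Per kilobase of the longest coding transcript, Pim1 was the highest of the 9 genes in untreated cells, at 49.9 ± 1.96 CPM per kb (SD, n = 3). Next came Pim3 (27.1), Il6st (25.3), Socs3 (23.8) and Stat3 (22.5), all in CPM per kb. In that order Pim3 overlapped Il6st, Il6st overlapped Socs3, and Socs3 overlapped Stat3 in the range over the 3 untreated libraries. Lifr (11.1), Junb (10.5), Gbx2 (10.0) and Jak1 (7.92) were lower. Jak1, at 7.06 to 8.39 CPM per kb, lay below every Gbx2 library, while Gbx2 at 9.55 to 10.4 lay inside the range of Junb, whose lowest library was at 7.44, and Junb overlapped Lifr. The ranks depend on the transcript length. With the median length of the coding transcripts, Pim1 stayed highest at 101 CPM per kb, and Il6st (85.3), Stat3 (36.5) and Lifr (34.5) moved above Pim3 (27.1) and Socs3 (23.8). Jak1, lowest by the longest transcript, was then at 14.6 CPM per kb, above Junb (10.5) and Gbx2 (10.0). By the longest transcript, Pim1 stood above 89.8% of the genes tested and Jak1 above 55.1%.

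**Figure D1:**
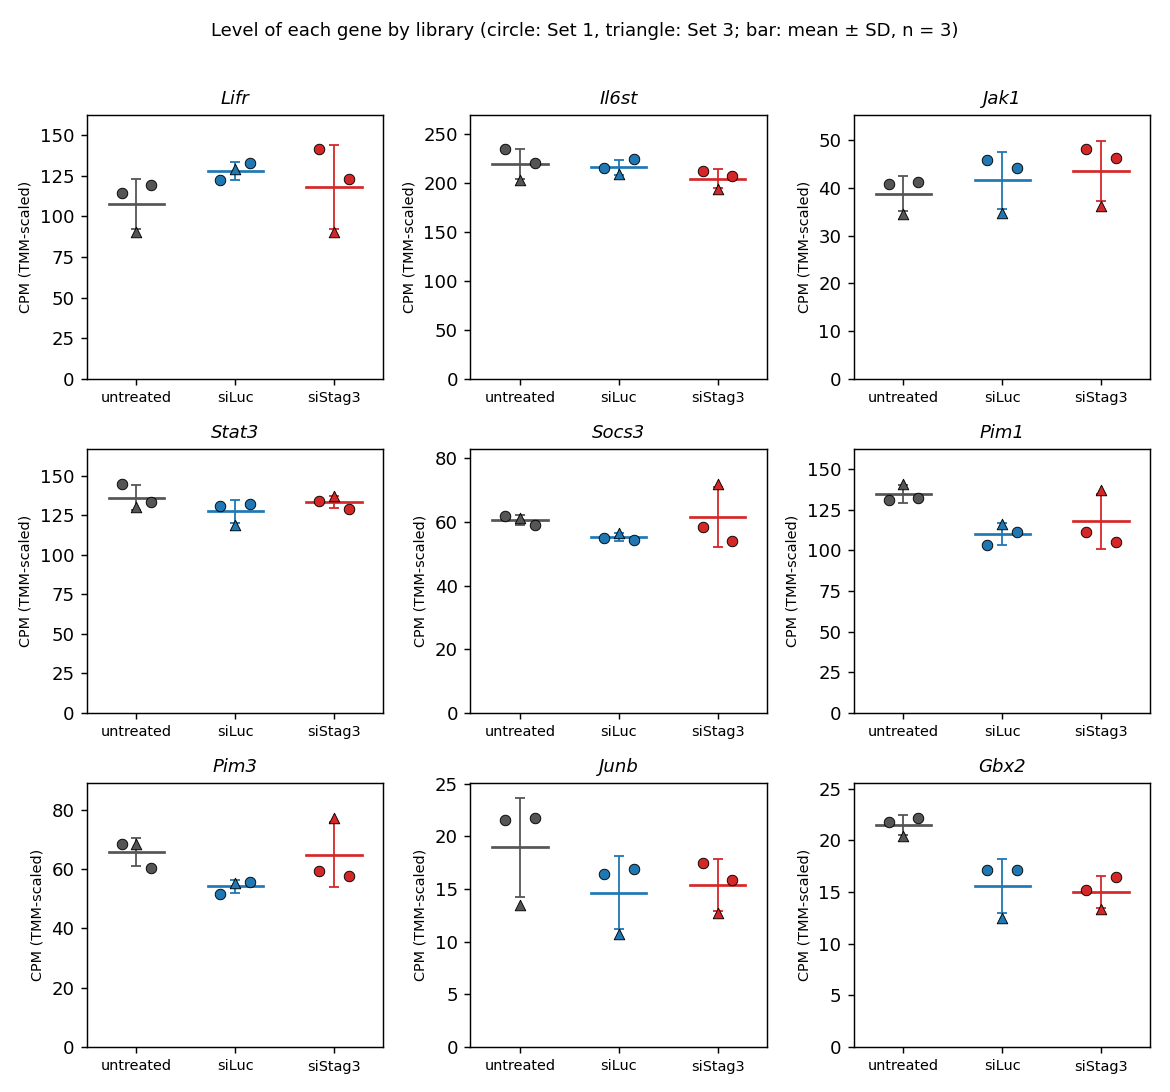
Level of each of the 9 genes in TMM-scaled CPM (vertical axes from 0) by group, with circles for Set 1 libraries, triangles for Set 3 libraries, and a line and bar for mean ± SD (n = 3). Gbx2 is lower in all 6 transfected libraries than in the 3 untreated ones, and the siStag3 library of Set 3 is the highest of its group for Socs3 (72.1 CPM), Pim1 (137 CPM) and Pim3 (77.5 CPM) and the lowest for Lifr (90.1 CPM).

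Setting siLuc beside untreated cells joins the effects of the lipid, of an siRNA aimed at luciferase and of handling. Gbx2, Junb and Pim1, which lie downstream of STAT3, were lower in siLuc. The receptor chains, Jak1, Stat3, and the downstream genes Socs3 and Pim3 did not pass in either direction in the main fit. The downstream genes all have a higher GC content than Stat3 and the genes upstream of it, as given below. Place in the pathway and GC content therefore cannot be told apart among the 9. With the set term 3 of the 9 genes passed lower and 0 higher, against a background of 2.55% of all tested genes called lower and 1.65% called higher. The median log2 fold change of the 9 was -0.13, beside -0.00 over all tested genes. With the set term 5 of the 9 had an unadjusted p under 0.05 (edgeR), beside 3964 of 14246 tested genes. Without the set term 0 of the 9 passed, against a background of 0.00702%. That fit had 3 of the 9 at an unadjusted p under 0.05 (edgeR), beside 1220 of 14246 tested genes. With the block 1 of the 9, Gbx2, passed lower, against 1.29% of tested genes called lower. The block had 5 of the 9 at an unadjusted p under 0.05 (edgeR), beside 3629 of 14246 tested genes. The DESeq2 test with the set called 4 of the 9 lower, adding Pim3 (adjusted p 0.0252), against 4.72% of all genes called lower. An edgeR fit of only the 6 libraries compared called 4 of the 9 lower (Pim1, Pim3, Junb and Gbx2) and 1 higher (Lifr). That fit called 949 genes lower and 852 higher of 14048 tested.

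Gbx2 was at 21.8, 22.2 and 20.4 CPM in untreated cells and at 17.1, 17.1 and 12.5 CPM in siLuc, the last value of each being the Set 3 library. The groups did not overlap. The log2 fold change was -0.47 (SE 0.0816, 95% interval -0.65 to -0.30, adjusted p 0.00764), which places siLuc at 72.1% of untreated. Without the set the value was -0.46 (adjusted p 0.580). The fall was present within Set 1 (-0.36) and within Set 3 (-0.70). It did not pass without the untreated library of Set 3 (-0.39, adjusted p 0.0769) or without the siLuc library of Set 3 (-0.38, adjusted p 0.0503). In GENCODE M21 an antisense gene, D130058E05Rik, overlaps Gbx2 and holds 42.7% of its 31-base sequences. Whether counting used strand is not stated, so reads of the 2 genes cannot be told apart here.

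Junb was at 21.6, 21.8 and 13.5 CPM in untreated cells and at 16.4, 16.9 and 10.7 CPM in siLuc. The Set 3 library was the lowest of each group, so the groups overlapped, while both sets showed the siLuc libraries below the untreated ones. The log2 fold change was -0.36 (SE 0.0817, adjusted p 0.0307), and -0.36 without the set (adjusted p 0.620). With the block it missed the threshold (-0.36, adjusted p 0.0524). Its call was lost in 7 of 9 fits that left out 1 library, with adjusted p up to 0.136. Those 7 libraries were the 3 untreated, the 3 siLuc and the siStag3 library of Set 1 experiment 1. Prdx2, a peroxiredoxin gene on the other strand, holds 6.51% of the 31-base sequences of Junb and differed by -0.10 (SE 0.0588, adjusted p 0.263).

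Pim1 was at 131, 132 and 141 CPM in untreated cells and at 103, 111 and 116 CPM in siLuc, with no overlap. The log2 fold change was -0.29 (SE 0.0645, adjusted p 0.0274), and -0.29 without the set (adjusted p 0.580). With the block it missed the threshold (-0.29, adjusted p 0.0505), as it did with the block and the GC correction described below (-0.15, adjusted p 0.0551). Its call was lost in 6 of 9 fits that left out 1 library, with adjusted p up to 0.141. The exceptions were the siLuc library of Set 1 experiment 3 and the siStag3 libraries of Set 1 experiment 3 and Set 3. Gm26885, a gene on the other strand, holds 375 of the 3385 31-base sequences of Pim1, and 11.5% are shared in all. Pim3, the paralog of Pim1, was at 68.7, 60.4 and 68.4 CPM in untreated cells and at 51.7, 55.6 and 55.3 CPM in siLuc, also with no overlap. Pim3 differed by -0.28 (SE 0.0803) and did not pass (adjusted p 0.0614). Leaving out the siStag3 library of Set 3, which is in neither group but shares the estimate of spread, gave an adjusted p of 0.00724 at the same -0.28. That fit called 2458 of 14428 tested genes. The edgeR fit of only the 6 libraries compared gave -0.28 for Pim3 (adjusted p 0.0171).

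Socs3 was at 61.9, 59.0 and 61.2 CPM in untreated cells and at 55.0, 54.3 and 56.5 CPM in siLuc. Every siLuc library lay below every untreated one, at a difference of -0.13 (SE 0.0751, adjusted p 0.253). The 95% interval of -0.30 to 0.03 holds no change as well as a fall of the size seen for Pim1. Lower siLuc levels with no overlap were found for 4 of the 9 genes (Gbx2, Pim1, Pim3 and Socs3), against 10.3% of all tested genes.

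None of the genes upstream of STAT3, nor Stat3 itself, passed the threshold in the main fit. Lifr was at 114, 119 and 90.1 CPM in untreated cells and at 122, 133 and 129 CPM in siLuc. The siLuc libraries were all higher, with 9.59% of tested genes showing no overlap in that direction, and the difference of 0.27 (SE 0.106) did not pass (adjusted p 0.134). Its size rested on Set 3, with 0.13 within Set 1 and 0.52 within Set 3. Leaving out the siStag3 library of Set 3 gave 0.26 with an adjusted p of 0.0462, in the fit that called 2458 of 14428 tested genes. The edgeR fit of only the 6 libraries compared gave 0.26 for Lifr (adjusted p 0.0398). Il6st was at 219 ± 15.3 CPM in untreated cells and 216 ± 7.67 CPM in siLuc, a difference of -0.02 (SE 0.0531, 95% interval -0.13 to 0.09). Jak1 was at 38.8 ± 3.66 and 41.6 ± 6.01 CPM, a difference of 0.09 (SE 0.0613, adjusted p 0.331). Stat3 was at 136 ± 7.63 and 127 ± 7.19 CPM, a difference of -0.09 (SE 0.0599, adjusted p 0.327). For all 3 genes the groups overlapped. Stat3 shares 2.36% of its 31-base sequences (226) with other genes, 42 of them with its neighbour Stat5a.

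**Figure D2:**
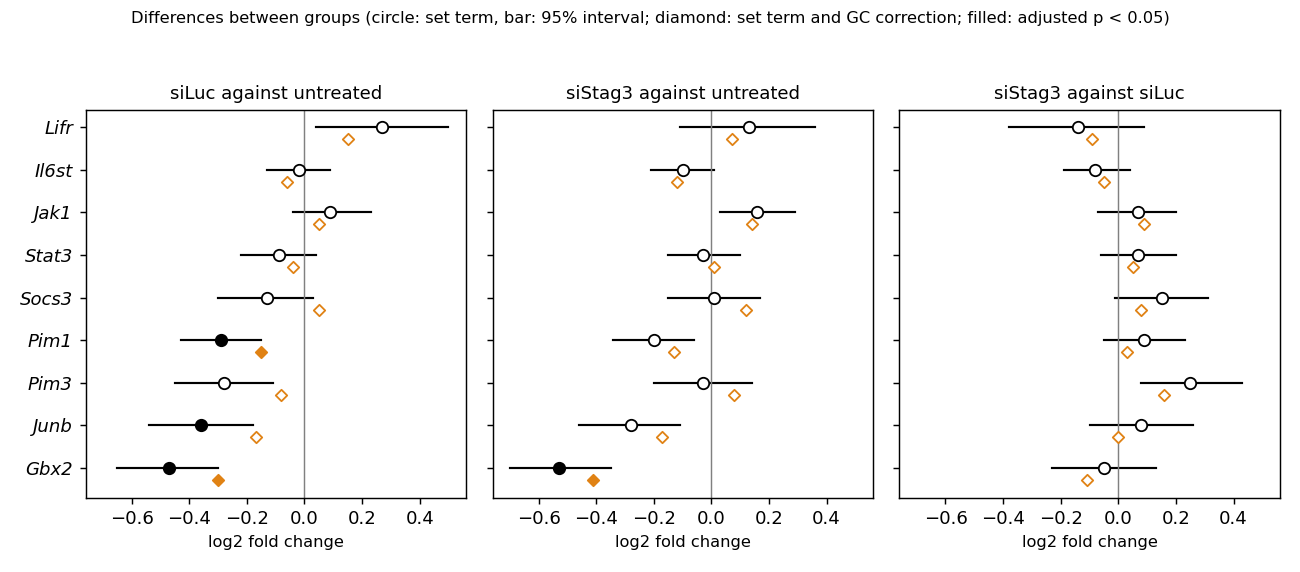
Log2 fold change of the 9 genes in each comparison, with circles and 95% intervals from the fit with the set term and diamonds from the fit with the set term and a GC correction, filled where the adjusted p was under 0.05. Gbx2 is filled in both comparisons with untreated cells under both fits, Pim1 in siLuc against untreated under both fits, Junb there with the set term alone, and no symbol is filled in siStag3 against siLuc.

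Against untreated cells, siStag3 was lower in Gbx2 by a similar amount, and no other of the 9 genes passed. This comparison shares its untreated libraries with the one above, so the 2 are not independent. With the set term 1 of the 9 genes was called lower and 0 higher, against 1.46% of tested genes called lower and 1.07% called higher. The median log2 fold change was -0.03, beside -0.01 over all tested genes. With the set term 4 of the 9 had an unadjusted p under 0.05 (edgeR), beside 2417 of 14246 tested genes. Without the set term 0 of the 9 passed, against 0.0140% of tested genes. That fit had 1 of the 9 at an unadjusted p under 0.05 (edgeR), beside 847 of 14246 tested genes. DESeq2 with the set called Gbx2 alone, against 1.60% of tested genes called lower. The block called 1 of the 9 lower, against 1.10% of tested genes. It had 4 of the 9 at an unadjusted p under 0.05 (edgeR), beside 2186 of 14246 tested genes.

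Gbx2 was at 15.2, 16.4 and 13.3 CPM in siStag3, below all 3 untreated libraries. The log2 fold change was -0.53 (SE 0.0819, 95% interval -0.70 to -0.35, adjusted p 0.00363), or 69.5% of untreated. Without the set it was -0.52 (adjusted p 0.474). The difference was -0.48 within Set 1 and -0.61 within Set 3. The call was lost without the untreated library of Set 3 (-0.44, adjusted p 0.0614) and without the siStag3 library of Set 1 experiment 1 (-0.49, adjusted p 0.0521). Gbx2 was the 1 gene of 9 whose siStag3 libraries did not overlap the untreated ones, and 5.38% of tested genes were lower in this way.

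Pim1 and Junb had values below untreated in Set 1 that were nearer to it in Set 3. Pim1 was at 111, 105 and 137 CPM in siStag3, and the last library, of Set 3, lay within the untreated range. Its difference was -0.20 (SE 0.0644, adjusted p 0.126), with -0.28 within Set 1 and -0.04 within Set 3. Junb was at 17.5, 15.9 and 12.7 CPM, with a difference of -0.28 (SE 0.0815, adjusted p 0.0908), -0.38 within Set 1 and -0.09 within Set 3. Without the siStag3 library of Set 3, Pim1 (-0.27, adjusted p 0.0127) and Junb (-0.36, adjusted p 0.0137) both passed lower, and 3 of the 9 genes were then called. That same fit called 1591 genes of the whole table, beside 361 with all libraries.

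Socs3 was at 58.4, 54.0 and 72.1 CPM in siStag3 and Pim3 at 59.5, 57.9 and 77.5 CPM. In both genes the Set 3 library was the highest of all 9 libraries and the Set 1 libraries lay below the untreated mean. The differences from untreated were 0.01 for Socs3 (SE 0.0749, 95% interval -0.15 to 0.17) and -0.03 for Pim3 (SE 0.0800, 95% interval -0.20 to 0.14). Within Set 1 they were -0.11 and -0.13, and within Set 3 they were 0.24 and 0.18. Stat3 was at 133 ± 3.84 CPM in siStag3, a difference of -0.03 (SE 0.0599). Il6st was at 205 ± 9.36 CPM, a difference of -0.10 (SE 0.0531, adjusted p 0.357). Jak1 was at 43.6 ± 6.35 CPM, a difference of 0.16 (SE 0.0612, adjusted p 0.205), and Lifr at 118 ± 25.9 CPM, a difference of 0.13 (SE 0.106, adjusted p 0.567). None of these 4 genes passed, and their groups overlapped.

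The comparison of siStag3 with siLuc asks what siRNA against Stag3 adds to transfection, with Stag3 RNA still at 61.3% of siLuc. None of the 9 genes passed with the set term in edgeR, nor under DESeq2. Of the 9, 1 gene, Pim3, had an unadjusted p under 0.05 in each of the 2 tests. In edgeR 1122 of 14246 tested genes were under it. The background was low, with 0.0281% of all tested genes called by edgeR and 0.154% by DESeq2. Differences ran from -0.14 for Lifr to 0.25 for Pim3, with a median of 0.07 beside -0.00 over all tested genes. Without the set term edgeR called 0 of the 9 and 0% of tested genes. That fit had 1 of the 9 at an unadjusted p under 0.05, beside 307 of 14246 tested genes. No fit that left out 1 library called any of the 9, nor did the block, against 0.0281% of tested genes. The block had 1 of the 9 at an unadjusted p under 0.05 (edgeR), beside 976 of 14246 tested genes.

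Pim3 showed the largest difference. All 3 siStag3 libraries (57.9 to 77.5 CPM) lay above all 3 siLuc libraries (51.7 to 55.6 CPM), as did 3.18% of tested genes. The log2 difference was 0.25 (SE 0.0807, 95% interval 0.08 to 0.43), with an unadjusted p of 0.00768 and an adjusted p of 0.454. It was 0.13 within Set 1 and 0.49 within Set 3. Socs3 differed by 0.15 (SE 0.0754, 95% interval -0.01 to 0.31, adjusted p 0.654), with 0.04 within Set 1 and 0.35 within Set 3. Gbx2, lower in both transfected groups, differed between them by -0.05 (95% interval -0.23 to 0.13). For Pim1 the interval was -0.05 to 0.23 and for Junb -0.10 to 0.26. For Stat3 it was -0.06 to 0.20, for Jak1 -0.07 to 0.20, for Il6st -0.19 to 0.04 and for Lifr -0.38 to 0.09. Jak1 was higher in siStag3 than in siLuc within each of the 3 blocks (45.8 and 48.1, 44.3 and 46.3, 34.7 and 36.3 CPM, siLuc first), by 0.07 with the block (adjusted p 0.848). Il6st was lower in each (215 and 212, 224 and 207, 209 and 194 CPM), by -0.08 (adjusted p 0.806). Pim3, too, was higher in siStag3 in each block. The share of all tested genes that keep the same direction in every block was not computed, so how common such a pattern is cannot be told here. Only the intervals of Lifr, Pim3 and Socs3 reach beyond 0.30 in either direction.

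**Figure D3:**
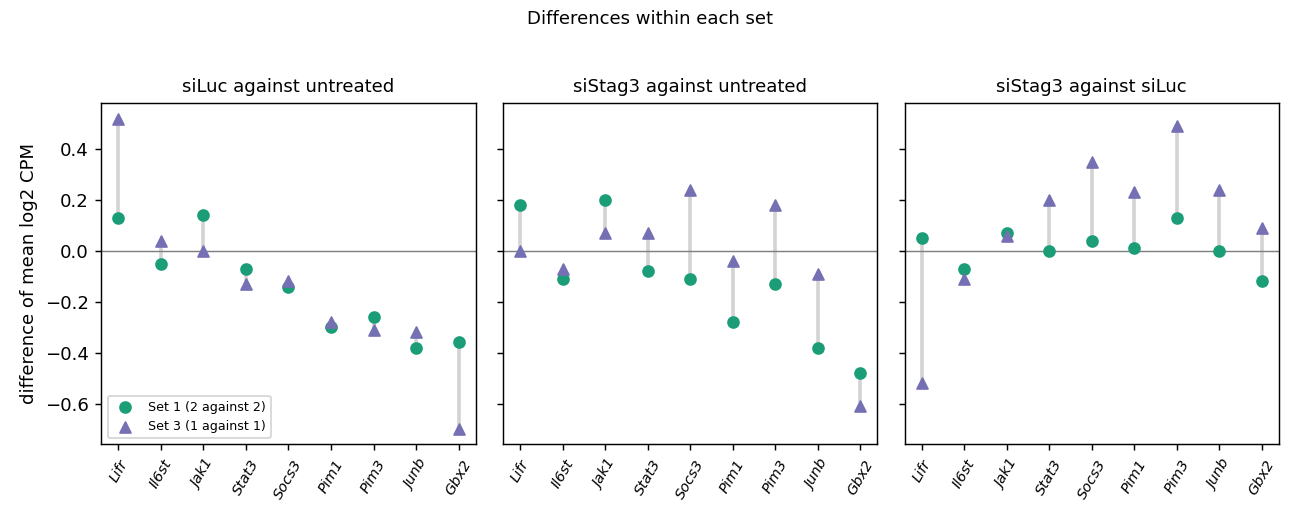
Difference of mean log2 CPM for each gene within Set 1 (circles, 2 against 2 libraries) and within Set 3 (triangles, 1 against 1 library), in each comparison. Pim1, Pim3, Junb and Socs3 lie close together in siLuc against untreated, while in siStag3 against siLuc Lifr is at 0.05 in Set 1 and -0.52 in Set 3.

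Several of the 9 genes moved with the set number itself. With group in the model, Junb was lower in Set 3 than in Set 1 by -0.58 (SE 0.0732, adjusted p 6.35e-05), Jak1 by -0.33 (adjusted p 3.57e-04), Lifr by -0.29 (adjusted p 0.0267) and Gbx2 by -0.26 (adjusted p 0.0109). Pim1 was higher in Set 3 by 0.18 (adjusted p 0.0167). The other 4 did not pass, and 42.7% of all tested genes differed between the sets. After the GC correction described below, Lifr (-0.15, adjusted p 0.169) and Pim1 (0.01, adjusted p 0.815) no longer passed. Stat3 then passed lower (-0.12, adjusted p 0.0105), Junb was at -0.84, and 41.5% of tested genes differed. Lifr had the widest gap between sets in siStag3 against siLuc. The difference in Set 3 minus that in Set 1 was -0.57 (SE 0.129, unadjusted p 9.60e-04) and missed the threshold in the interaction test (adjusted p 0.0601), which called 1.12% of tested genes. None of the 9 genes passed that test in any of the 3 comparisons, and it called 0.0140% of tested genes in siLuc against untreated and 0.00702% in siStag3 against untreated. At an unadjusted p under 0.05 it held Lifr, Socs3 and Pim3 in siStag3 against siLuc, among 21.6% of tested genes. In Set 3 the siLuc library is of experiment 1 and the other 2 libraries are of experiment 5. What a set or an experiment is was not stated, so the 2 cannot be told apart there.

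Differences from untreated cells followed the GC content of transcripts, and the 9 genes span a wide range of it. GC content was 44.4% for Lifr, 47.4% for Il6st, 47.6% for Jak1 and 52.5% for Stat3. It was 56.0% for Pim1, 58.7% for Socs3, 59.4% for Gbx2, 61.9% for Pim3 and 62.6% for Junb, and the median of tested genes was 50.0%. In siLuc against untreated, the median log2 fold change fell from 0.23 in the 712 genes of lowest GC content to -0.20 in the 712 of highest. In siStag3 against siLuc it went from -0.11 to 0.10. The Spearman correlation of log2 fold change with GC content across 14226 genes was -0.495 for siLuc against untreated, -0.316 for siStag3 against untreated and 0.385 for siStag3 against siLuc. Genes within a library are not independent, so these serve as descriptions.

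After each library was corrected for GC content, with the set term kept, Gbx2 still passed lower in siLuc (-0.30, adjusted p 0.0205) and in siStag3 (-0.41, adjusted p 0.00165) against untreated. Pim1 in siLuc was -0.15 (adjusted p 0.0442). Junb in siLuc was -0.17 and no longer passed (adjusted p 0.148), Pim3 was -0.08 (adjusted p 0.294) and Socs3 changed sign to 0.05 (adjusted p 0.616). Lifr in siLuc went from 0.27 to 0.15 (adjusted p 0.384). The correction left 2 of the 9 genes called lower in siLuc, against 3.79% of tested genes, and 1 of the 9 in siStag3 against untreated, against 3.45%. At an unadjusted p under 0.05 (edgeR) were 3 of the 9 in siLuc against untreated, beside 3114 of 14246 tested genes. In siStag3 against untreated there were 6 of the 9, beside 2952. In siStag3 against siLuc the correction called none of the 9, against 0.428% of tested genes, and Pim3 was 0.16 (adjusted p 0.132). Of the 9, 1 had an unadjusted p under 0.05 there (edgeR), beside 1498 of 14246 tested genes.

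**Figure D4:**
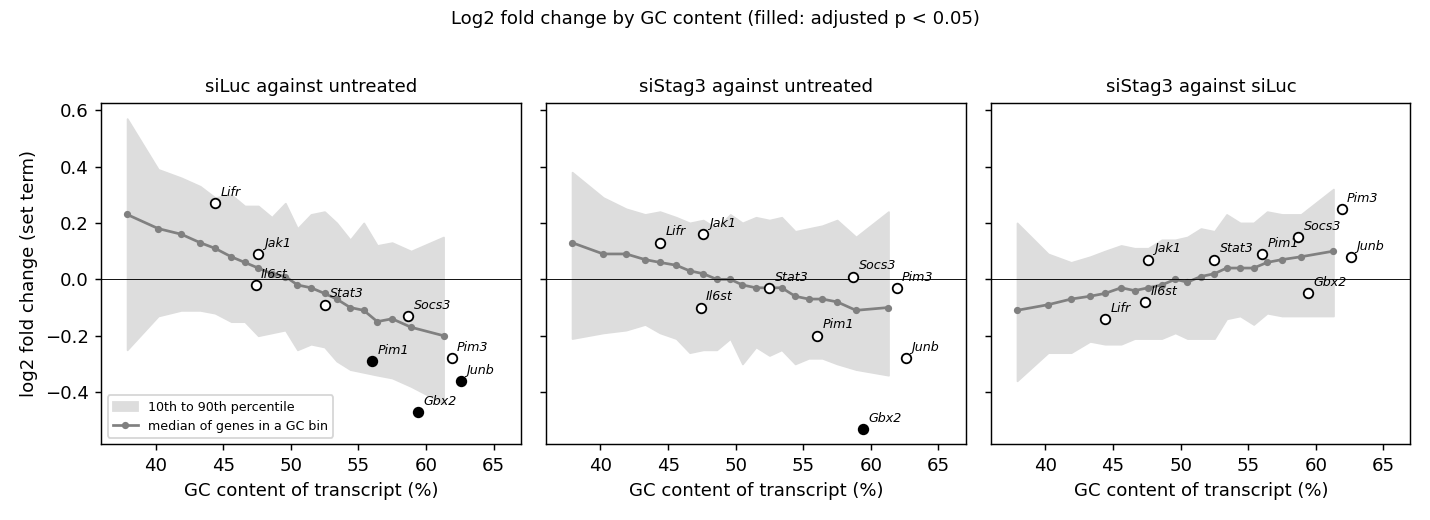
Log2 fold change against GC content of the longest coding transcript (%), with the 9 genes as points (filled where the adjusted p was under 0.05), the median of tested genes in 20 bins of GC content as a grey line, and their 10th to 90th percentile as a band. Gbx2 lies below the band in both comparisons with untreated cells, where the bin that holds it has a 10th percentile of -0.38 in siLuc and -0.32 in siStag3, while Socs3 lies inside it.

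Beyond the 9 genes, 4 lists of the pathway were examined. Of 14 IL-6 family cytokines and other receptor chains, 9 were tested. None was called in siStag3 against siLuc by edgeR or DESeq2. In edgeR 1 of the 9 had an unadjusted p under 0.05 there, beside 1122 of 14246 tested genes. None was called by edgeR in siLuc against untreated either, where DESeq2 called 2 lower, against 4.72% of tested genes. In that comparison 3 of the 9 had an unadjusted p under 0.05 in edgeR, beside 3964 of 14246 tested genes. Lif itself was transcribed at 14.3 ± 2.28 CPM in untreated cells and differed by -0.01 in siLuc (SE 0.105, adjusted p 0.967). Il6ra, the chain that binds interleukin 6, was called higher in siStag3 against untreated, the 1 gene of 9 called (background 1.07%). It was at 18.6, 19.7 and 15.8 CPM in untreated cells, 21.2, 21.9 and 17.5 CPM in siLuc and 23.2, 23.7 and 19.2 CPM in siStag3. The Set 3 library was the lowest of each group, and siStag3 was the highest group within each set. The difference was 0.29 (SE 0.0666, adjusted p 0.0369), 0.31 with the GC correction (adjusted p 0.00202), 0.29 without the set (adjusted p 0.840) and 0.29 with the block (adjusted p 0.0628). The call of Il6ra was lost in 7 of 9 fits that left out 1 library, with adjusted p up to 0.152. The 7 were the 3 untreated libraries and the 4 Set 1 libraries of siLuc and siStag3.

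The list of other kinases, STATs and adaptors had 14 genes tested and none called in any comparison by edgeR with the set. At an unadjusted p under 0.05 there were 4 in siLuc against untreated, 2 in siStag3 against untreated and 0 in siStag3 against siLuc. Of 14246 tested genes, edgeR had 3964, 2417 and 1122 under it in the same order. DESeq2 called 1 lower in siLuc against untreated, beside 4.72% of tested genes, and 0 in each of the others. Ptpn11, the phosphatase SHP2 that links gp130 to the MAP kinase branch, averaged 74.5 ± 4.56 CPM untreated and 75.2 ± 2.78 CPM with siLuc. The list of other negative regulators also had 14 tested and none called by edgeR or DESeq2. It had 2, 0 and 1 at an unadjusted p under 0.05 in edgeR in the same order. The numbers over all tested genes are those just given.

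Of 20 other genes known to respond to STAT3, all were tested, and 3 were called lower and 0 higher in siLuc against untreated, beside 2.55% and 1.65% of tested genes. DESeq2 called 4 lower, beside 4.72%. In siStag3 against untreated 1 of the 20, Egr1, was called lower, beside 1.46% of tested genes, and DESeq2 called 2, beside 1.60%. Egr1, an immediate early transcription factor that also reads out ERK signalling, was at 171, 173 and 44.4 CPM in untreated cells and at 92.8, 123 and 26.9 CPM in siLuc. It was at 106, 118 and 25.8 CPM in siStag3. The Set 3 library was the lowest of each group by far, and within each set the transfected libraries lay below the untreated ones. Egr1 differed by -0.69 in siLuc (SE 0.0903, adjusted p 0.00162) and by -0.67 in siStag3 (SE 0.0903, adjusted p 0.00182). The adjusted p rose to 0.716 and 0.933 in the fit without the set, and 0.0696 and 0.0621 with the GC correction. With the block and the GC correction Egr1 passed in both (-0.57 in siLuc and -0.59 in siStag3, the larger adjusted p being 0.00140). Bcl3, an IκB family co-regulator, fell from 48.9 ± 1.58 to 38.1 ± 2.66 CPM in siLuc (-0.36, adjusted p 0.0298). Zfp36, which encodes an mRNA decay factor, fell from 13.5 ± 1.82 to 10.8 ± 0.839 CPM (-0.32, adjusted p 0.0422). Without the set Bcl3 had an adjusted p of 0.579 and Zfp36 of 0.580, and with the GC correction 0.0442 and 0.0848. With the block Zfp36 missed the threshold (adjusted p 0.0715) and Bcl3 was at 0.0495, or 0.0619 with the GC correction too. The GC correction changed which of the 20 were called, to 2 lower and 1 higher, beside 3.79% and 3.18% of tested genes. Bcl3 remained, Pramel6 was gained lower (-0.73, adjusted p 0.0221) and Jun, an AP-1 transcription factor, was gained higher (0.46, adjusted p 0.0468). Leaving out 1 library ended the call of Bcl3 in 6 of 9 fits (adjusted p up to 0.166) and that of Zfp36 in 8 of 9 (up to 0.148). For Zfp36 the exception was the siStag3 library of Set 3, and for Bcl3 also the siLuc and siStag3 libraries of Set 1 experiment 3. The median of the 20 genes was -0.09 in siLuc, beside -0.00 over all tested genes.

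None of Tfcp2l1, Klf4, Klf5, Pramel6 and Pramel7, genes of that list active in the naive state, passed in siLuc against untreated with the set term. Tfcp2l1, a transcription factor through which STAT3 sustains the naive state, averaged 1438 ± 153 CPM untreated and 1390 ± 146 CPM with siLuc (-0.05, adjusted p 0.633). Klf4 was at 191 ± 3.28 and 183 ± 18.2 CPM (-0.07, adjusted p 0.498). Klf5 was at 211 ± 9.15 and 226 ± 15.4 CPM (0.09, adjusted p 0.303). Pramel6 was low, at 2.37 ± 0.851 and 1.51 ± 0.667 CPM, with the largest difference of the 5 (-0.66, SE 0.195, adjusted p 0.0659). Pramel7, also low, differed by 0.33 (SE 0.254, adjusted p 0.421). In siStag3 against siLuc 0 of the 20 genes passed by edgeR or DESeq2. In edgeR 2 of the 20 had an unadjusted p under 0.05, beside 1122 of 14246 tested genes.

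The genes whose level most followed that of Socs3 and Stat3 were found among 5660 others whose mean log2 CPM was 5 or more. Pearson correlation of log2 CPM, centred on the mean of each set, was taken over the 9 libraries. For Socs3 they were Nr4a1 (0.973), Tfeb (0.970), Maz (0.965), Plcg1 (0.965) and St14 (0.957). For Stat3 they were Mvp (0.985), Nacc1 (0.981), Sbf1 (0.981), E2f4 (0.981) and Wbp2 (0.980). These 10 genes had GC contents from 54.1% to 63.6%, all above the median of tested genes. The 9 libraries share groups, sets and GC trends, and the part of GC content in these correlations was not tested.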

How the data were processed

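The authors deposited 1 table of raw counts per gene for 9 libraries, with Ensembl gene IDs and mouse symbols. Per the submitters' processing notes, FastQC, Salmon and DESeq2 were used with build GRCm39, with no role or version given. Values are whole numbers, and if they came from Salmon they are rounded estimates. Annotation release and strand setting are not given in the sources used here. The smallest row sum is 9. Column headers name group, set and experiment but no replicate number of the labels, so columns were assigned to groups. 0 columns were left unused.

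Counts were tested with edgeR 4.0.16 in R 4.3.3 (robust quasi-likelihood F test, TMM, filterByExpr, set as an additive term, all 9 libraries). P-values are two-sided, adjusted by Benjamini-Hochberg over 14246 genes, threshold 0.05. Adjusted p-values are from this test unless DESeq2 1.42.0 is named. SE is the absolute log2 fold change divided by the square root of F, and 95% intervals use it with a t quantile. Within-set differences use log2 CPM with a prior count of 2. Replicate p-values measure the spread between these samples only, and floors cover counting error only. GC content (20 bins) and transcript length came from GENCODE M21 (GRCm38), which holds 16604 of 16636 IDs, and promoter windows from RefSeq. The test was tried on simulated counts.

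The members, the lists and the use of the set term were chosen with earlier results of these data known. The 9 genes and Stag3 are always named. From each list, genes past the threshold in the main test are named. Tfcp2l1, Klf4, Klf5, Pramel6, Pramel7, Jun, Lif and Ptpn11 were chosen after their values were seen, as were genes that overlap a member. Alternatives were the fit without the set, GC correction, Set 1 alone, the 6 libraries compared, other scalings and filters, a non-robust fit, DESeq2, and leaving out each library. A block by experiment within Set 1, with all of Set 3 as a block (3 blocks, 4 residual degrees of freedom), was added after the data were seen. Libraries of 1 block deviated together from their group means (Pearson r 0.18 to 0.66 across 14246 genes), but the differences between the 2 experiments of Set 1 did not correlate between groups (-0.04 to -0.03).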

Additional observations from a re-analysis of the deposited data

How the results depend on the processing

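The labels' replicate numbers are not in the column names. The set number, and the experiment number within Set 1, were therefore used as a replicate block. Whether the libraries of a block were paired is not stated. Counts of genes called over the whole table moved as follows, and the cause was not tested. For siStag3 against siLuc the count was 4, and 0 without the set term (307 at an unadjusted p under 0.05, edgeR), 61 with the GC correction, 1 with only the 6 libraries compared and 22 with DESeq2. Leaving out 1 library gave 0 to 4. The replicate block gave 4, 317 and 268 genes in siStag3 against siLuc, siLuc against untreated and siStag3 against untreated, and 54, 878 and 870 with the GC correction. It ended the calls of Pim1, Junb and Zfp36 in siLuc against untreated and of Il6ra in siStag3 against untreated, and no other call on a named gene. For siLuc against untreated it was 598, and 1, 993, 1801 and 1328 under the same alternatives, 298 in Set 1 alone, and 111 to 2458 with 1 library left out. The highest of these was without the siStag3 library of Set 3. For siStag3 against untreated it was 361, and 2 without the set term, 961 with the GC correction, 949 in Set 1 alone and 78 to 1591 with 1 library left out. Scaling by total count only changed the split in siLuc against untreated from 235 higher and 363 lower to 161 and 600, and in siStag3 against untreated from 153 and 208 to 100 and 256. For Set 3 against Set 1 it changed 3053 higher and 3023 lower to 3834 and 2378. The interaction test called 160 genes in siStag3 against siLuc, or 40 with a non-robust fit, and 1 in siStag3 against untreated, or 0 with a non-robust fit (1291 at an unadjusted p under 0.05 in the robust fit).

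Values that changed sign were small. With the GC correction they were Socs3 in siLuc against untreated (0.05), Stat3 and Pim3 in siStag3 against untreated (0.01 and 0.08), Junb and Egr1 in siStag3 against siLuc (-0.00 and -0.02), and Socs3 and Pim3 in Set 3 against Set 1 (-0.09 for both). The replicate block with the GC correction gave the same changes of sign for Socs3 (0.05), Stat3 (0.01), Pim3 (0.08) and Egr1 (-0.02). In Set 1 alone they were Lifr, Stat3 and Bcl3 in siStag3 against siLuc (0.05, -0.00 and -0.01) and Socs3 in siStag3 against untreated (-0.10). Scaling by total count only took the last to -0.03. With 1 library left out, siStag3 against siLuc gave Lifr from -0.24 to 0.02, Junb from -0.00 to 0.15 and Egr1 from -0.09 to 0.14. siLuc against untreated gave Il6st from -0.04 to 0.01. siStag3 against untreated gave Stat3 from -0.08 to 0.02, Socs3 from -0.10 to 0.09 and Pim3 from -0.14 to 0.04. Gbx2 kept its sign in all 21 alternatives of each comparison with untreated cells. With 3 libraries per group, of which 1 is of Set 3, the main fit did not resolve the siLuc difference of Socs3. It was -0.13 against untreated cells (adjusted p 0.253).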
